A study of Mus musculus with 12 samples.

Results

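The proteasome is the protease that plasma cells use to clear misfolded and surplus protein, and its subunit and assembly genes were followed across 4 groups of plasma cells. The genes were the rows of a table of 14219 genes whose symbol begins with Psma to Psmg followed by a digit, without pseudogene names, which gave 48 genes. Of these, 47 are proteasome genes. Psmc3ip matches by name only, since it encodes a meiotic recombination factor first found as a partner of Psmc3. The groups, with 3 RNA-seq libraries each, were day 270 marked, day 270 unmarked, day 60 marked and day 60 unmarked plasma cells from the bone marrow of C57BL/6 mice of genotype BLTcre.mcl1fl/+. Tamoxifen had switched on a human CD4 reporter. Marked cells are the human CD4+ ones sorted 270 or 60 days later, and unmarked cells are the human CD4- ones of the same days. All 4 groups had been given tamoxifen and carried 1 floxed Mcl1 allele, so no group was free of either. Cre recombines floxed alleles, so marked cells may also have lost that copy of Mcl1. Whether they had was not tested. Persistence since labelling and loss of the copy cannot be told apart in a comparison of marked with unmarked cells. The labels do not say which cell type drives the Cre, how old the mice were or whether a specimen number stands for 1 animal. The p-values therefore measure the spread between these libraries only. Marked were compared with unmarked cells at each day to ask how cells that have persisted since labelling differ from unmarked ones, and days were compared to ask what changes with time since labelling.

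The proteasome has a core particle of stacked alpha and beta rings, with the proteolytic sites in 3 of the beta subunits, Psmb5, Psmb6 and Psmb7. Interferon-inducible counterparts, Psmb8, Psmb9 and Psmb10, replace these in the immunoproteasome of lymphoid cells. A cap, made of ATPase (Psmc) and non-ATPase (Psmd) subunits, recognises ubiquitin-tagged proteins, unfolds them and feeds them to the core. Other activators (Psme) open the core without the cap, Psmf1 can inhibit it, and dedicated chaperones put the pieces together. Plasma cells secrete large amounts of antibody, and in culture and in myeloma they are known for their sensitivity to proteasome inhibitors.

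Transcription of the subunit genes is known to be raised as a set by Nfe2l1 when proteasome activity falls, through antioxidant response elements in their promoters. The promoters of Psmb5 and Psmb6, which encode a pair of the constitutive catalytic subunits, are shown with the match to the core of that element, TGACNNNGC, in capitals (RefSeq, build GRCm38.p6, each written 5′ to 3′ on the strand of its gene).
Psmb5, chr14:54618023-54618145, minus strand: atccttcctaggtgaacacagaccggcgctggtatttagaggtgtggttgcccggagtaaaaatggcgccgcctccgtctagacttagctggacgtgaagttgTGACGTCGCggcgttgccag
Psmb6, chr11:70525207-70525356, plus strand: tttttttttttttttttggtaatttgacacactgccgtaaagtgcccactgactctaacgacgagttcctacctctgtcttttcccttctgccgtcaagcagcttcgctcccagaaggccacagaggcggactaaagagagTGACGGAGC
The match ends 39 bases before the RefSeq start in Psmb5 and 1 base before it in Psmb6. A window of 300 bases, from 250 before to 50 after the start, was on hand for 41 of the 48 genes. On either strand, TGACNNNGC occurred in 6 of these (14.6%; Psmb5, Psmb6, Psmc6, Psmd9, Psmd12 and Psme4), against 14.0% of 27025 genes with such a window. CCAAT occurred in 14 members (34.1%, against 41.1% of all genes). The core of the interferon response element, GAAA repeated after 2 bases of any kind, occurred in 5 (12.2%, against 3.99%). These were Psmb3, Psmd4, Psmd9, Psme1 and Psmg4. The gamma-activated core TTCNNNGAA occurred in 3 (7.32%, against 9.55%), namely Psmb8, Psmd2 and Psmg1. Neither core occurred in the windows of Psmb9, Psmb10 or Psme2. These are matches of letters in windows of 1 length, and they do not show that a factor is bound.

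Levels were first compared among the genes as CPM (reads scaled to one common library total) per kb of transcript, averaged over the 12 libraries. The length was that of the principal coding transcript in GENCODE M21, or of the longest where several are tagged principal. All 48 genes passed the filter on low counts. The 47 proteasome genes spanned a 45.5-fold range on this per-length scale, and 14 of the 48 lay above 100 CPM per kb while 11 lay below 20. The constitutive beta ring had a median of 159 CPM per kb over 7 genes, with Psmb4 (266 CPM per kb) and Psmb6 (246 CPM per kb) at the top of all members. The alpha ring had a wider range, with Psma7 at 246 CPM per kb, Psma5 at 15.6 CPM per kb and Psma3 at 13.7 CPM per kb around a median of 78.2 CPM per kb over 7 genes. The cap lay lower, at a median of 50.6 CPM per kb for its 6 ATPases and 50.4 CPM per kb for its 11 non-ATPase subunits. Psmd8, a lid subunit, was the highest of the cap (132 CPM per kb), and Psmd11, which encodes a clamp-like lid subunit, was the lowest (15.2 CPM per kb). The 7 assembly chaperones had the lowest median of the groups with several genes, 17 CPM per kb, and Psmg3 (5.85 CPM per kb) was the lowest proteasome gene. Psmf1, the inhibitor, lay at 10.3 CPM per kb, and Psmc3ip at 3.08 CPM per kb.

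**Figure D1:**
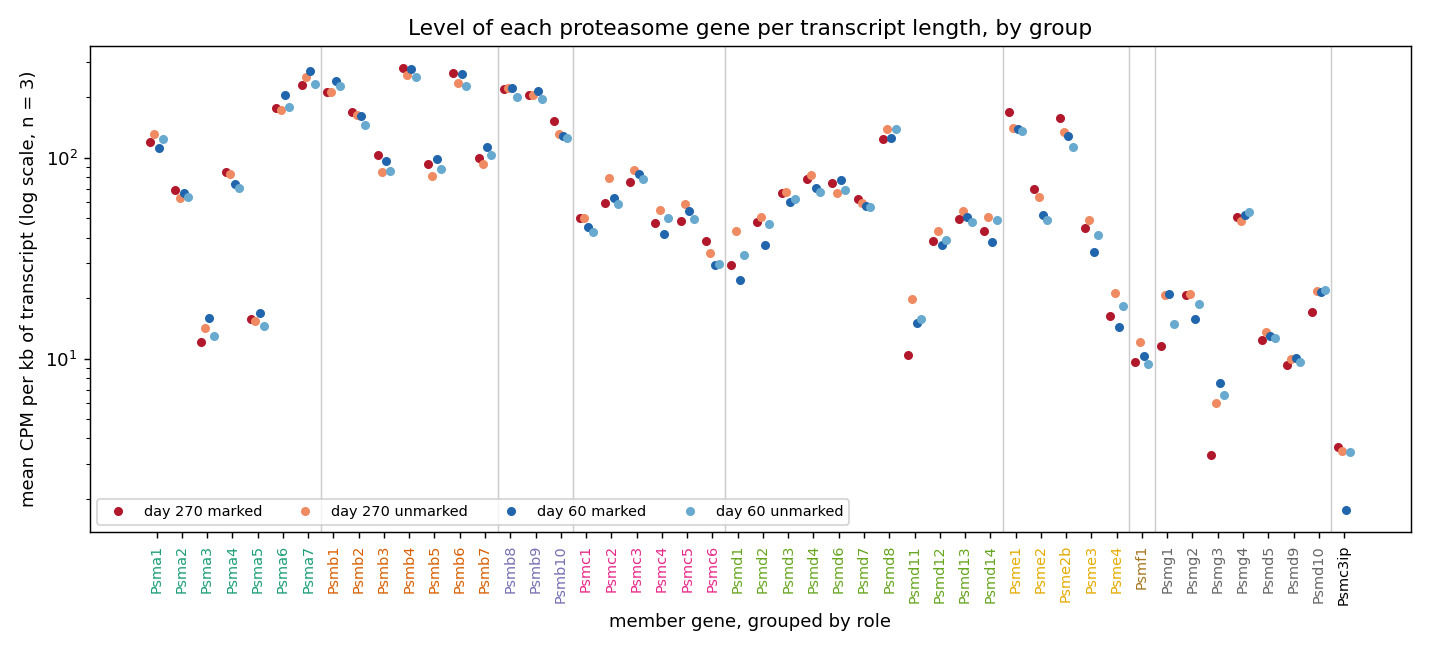
Mean CPM per kb of principal transcript (log scale, n = 3 libraries per point) of the 48 genes, grouped by role, in day 270 marked, day 270 unmarked, day 60 marked and day 60 unmarked plasma cells. Within most genes the 4 group means lie close together compared with the differences between genes. The assembly chaperones and Psmf1 are low and the beta ring is high.

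Summed per kb of transcript, the 3 inducible catalytic genes lay at about the level of the 3 constitutive ones in every group, but single pairs differed. Psmb8 lay at 216 CPM per kb and its counterpart Psmb5 at 89.97 CPM per kb. Psmb9 lay at 206 CPM per kb and Psmb6 at 246 CPM per kb. Psmb10 lay at 134 CPM per kb and Psmb7 at 102 CPM per kb. The 3 pairs therefore differed in order, with Psmb8 furthest above its counterpart, Psmb10 above and Psmb9 below. The inducible genes made up 58.3, 49.6 and 58.1% of the summed CPM per kb of the 6 genes in day 270 marked libraries and 58.8, 56.5 and 57.9% in day 270 unmarked libraries. They made up 54.96, 53.7 and 54.7% in day 60 marked libraries and 54.2, 55.8 and 56.8% in day 60 unmarked libraries. Marked and unmarked libraries overlapped at both days, and the lowest of the 12 values belonged to day 270 marked library 2. The share averaged 55.3 ± 4.93% in day 270 marked cells and 57.7 ± 1.15% in day 270 unmarked cells, and 54.4 ± 0.651% in day 60 marked cells and 55.6 ± 1.33% in day 60 unmarked cells (SD, n = 3 each).

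Libraries held 7449468 to 15943547 reads in the genes of the table. The 8 plasma cell markers summed to 89990 to 325847 CPM and all had reads in every library, whereas the 8 B cell markers summed to 891 to 1152 CPM. Day 270 marked libraries 2 and 3 stood apart. In library 2, 10 features that resemble ribosomal RNA took 30.5% of the reads, against 0.284% to 12.1% in the other libraries, and Jchain took 7.90%, against 15.4% to 31.3%. The numbers of genes with a read, 11022 in library 2 and 11301 in library 3, were the lowest of the 12. Erythroid markers, 7 of 9 of them in the table, summed to 180 to 788 CPM in day 270 marked cells against 28.5 to 166 CPM in day 270 unmarked cells, and to 107 to 346 CPM in day 60 marked cells against 37.3 to 62.9 CPM in day 60 unmarked cells. Neutrophil markers summed to 86.7 to 553 CPM in day 270 marked and 41.2 to 223 CPM in day 270 unmarked libraries. At day 60 they summed to 1.78 to 818 CPM in marked and 22.8 to 299 CPM in unmarked libraries. Monocyte and macrophage markers summed to 248 to 627 CPM in day 270 marked and 154 to 321 CPM in day 270 unmarked libraries. Marked and unmarked ranges of both sets overlapped at each day. The part of these differences in the results was not tested. Mcl1, the survival gene with the floxed allele, had 417, 384 and 513 CPM in day 270 marked libraries against 527, 589.6 and 549.6 CPM in day 270 unmarked libraries. At day 60 it had 342, 392 and 508 CPM in marked libraries against 538, 483 and 539 CPM in unmarked libraries, so the groups did not overlap at day 270 and overlapped at day 60.

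The 48 genes together took 0.441% to 0.655% of the reads. Their sum was 5699, 4412 and 6545 CPM in day 270 marked libraries against 5617, 5522 and 5848 CPM in day 270 unmarked libraries, and 5532, 5093 and 5748 CPM in day 60 marked libraries against 5481, 5397 and 5007 CPM in day 60 unmarked libraries. The lowest and the highest of the 12 sums were thus both in day 270 marked cells. Day 270 marked library 2 was the lowest of the 12 libraries for 25 of the 48 genes, and day 270 marked library 3 the highest for 21. The median gene deviated from its group's mean by -0.33 (log2) in library 2 and 0.26 in library 3, beside -0.29 and 0.16 for all genes. In these bulk libraries, fewer cells of a type and less RNA per cell cannot be told apart.

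At day 270, no proteasome gene passed the test between marked and unmarked cells. The test was limma on log2(CPM + 0.5) with Benjamini-Hochberg adjustment over the 12704 genes that passed the filter, of which 61 (0.48%) were called at an adjusted p under 0.05. At an unadjusted p under 0.05 there were 4 members (Psmc2, Psmd1, Psmd11 and Psmg1), against 14% of all genes tested, and edgeR and DESeq2 also called 0 members and had 4 each at an unadjusted p under 0.05. Fitted log2 fold changes (marked over unmarked) were positive for 16 members and negative for 32, with a median of -0.11, beside -0.22 for all genes, of which 30.8% were positive. With TMM scaling, which sets the typical gene nearer to 0, 25 members were positive and their median was 0.01, beside -0.10 for all genes. These signs depended on single libraries of the day 270 marked group. Without library 2, 29 members were positive and their median was 0.12, beside -0.06 for all genes, of which 45.1% were positive. Without library 3, 8 were positive and their median was -0.24, beside -0.29 for all genes. All marked libraries lay above all unmarked ones for 2 members (Psmd6 and Psme1; 3.28% of all genes tested), and 6 had all marked libraries below (Psmc5, Psmd1, Psmd10, Psmd11, Psmg1 and Psmg3; 12% of all genes tested). The 95% interval of the fold change lay within 1 log2 unit of 0 for 44 of the 48 members, the exceptions being Psmc3ip, Psmd11, Psmg1 and Psmg3.

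At day 60, no proteasome gene passed either, and 24 of all genes tested were called (0.189%). Psmd1 was the only member at an unadjusted p under 0.05 (6.45% of all genes tested), and edgeR and DESeq2 called 0 members with 1 each at that level. Here 32 members were positive and 16 negative, with a median of 0.06, beside -0.13 for all genes, of which 36.1% were positive. With TMM scaling, 38 were positive and the median was 0.19, beside -0.01 for all genes. All marked libraries lay above all unmarked ones for Psma3 and Psmg1 (4.46% of all genes tested) and below them for Psmc4, Psmd1, Psmd14 and Psme4 (11.3% of all genes tested). In the authors' deposited table for this contrast, 38 members had a positive log2 fold change and 10 a negative one (median 0.20, beside -0.0015 for all genes of that table), and the lowest FDR of a member was 0.581 (Psma7). The 95% interval lay within 1 log2 unit of 0 for 44 members, all but Psma5, Psmc3ip, Psmg1 and Psmg3.

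**Figure D2:**
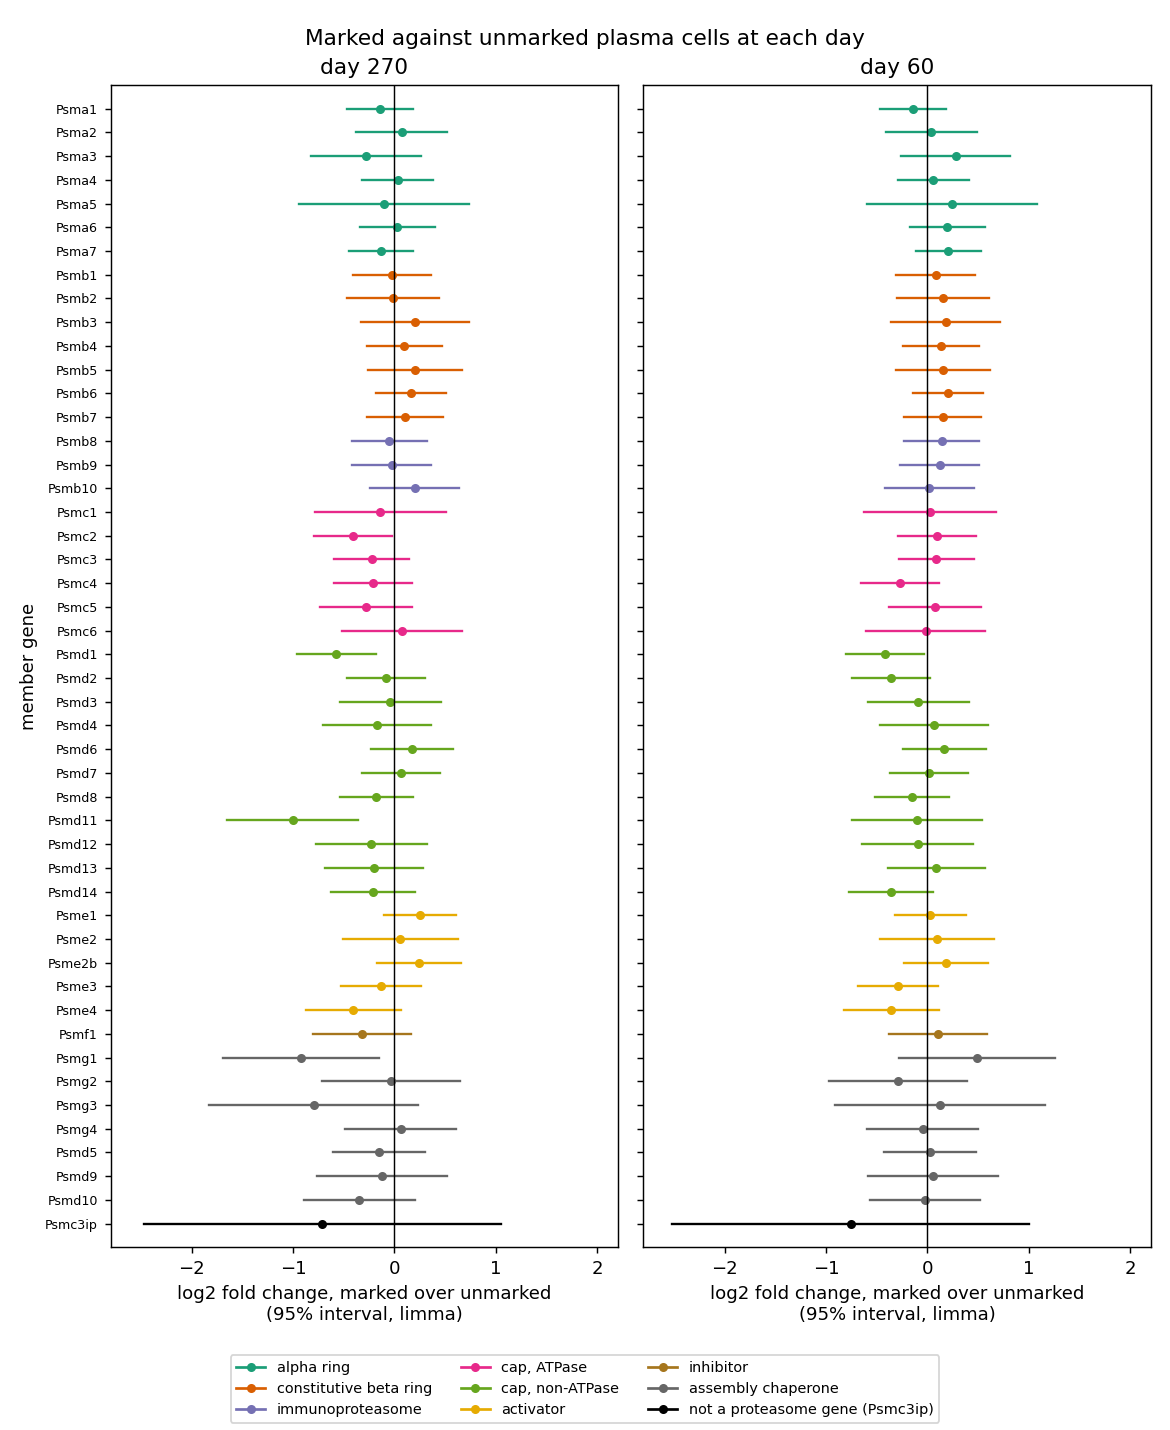
Log2 fold change of marked over unmarked cells with its 95% interval (limma, 3 libraries against 3) for each of the 48 genes at day 270 (left) and day 60 (right), coloured by role. The constitutive beta ring genes lie near 0 or right of it at both days. Psmd1 lies left of 0 at both days, and Psmd11 lies left of 0 at day 270 (-1.0).

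Averaged over both days, 0 members were called, against 234 of all genes tested (1.84%). By DESeq2, 1 member, Psmd1, was called, against 4.3% of all genes tested. At an unadjusted p under 0.05 there were 3 members by limma (Psmd1, Psmd11 and Psme4; 16.9% of all genes tested), 7 by edgeR and 9 by DESeq2. Fitted values were positive for 22 members and negative for 26 (median -0.05, beside -0.18 for all genes), and with TMM scaling for 32 and a median of 0.08, beside -0.07 for all genes. Without day 270 marked library 2, 27 were positive (median 0.06, beside -0.10 for all genes), and without day 270 marked library 3, 13 were (median -0.13, beside -0.22).

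Core and cap genes differed in their signs in this average. Of the 14 genes of the alpha and constitutive beta rings, 12 had a positive fold change (median 0.07), against 3 of the 17 cap genes (median -0.10). Of all genes tested, 29.6% were positive, with a median of -0.18, so the median of the cap also lay above that of all genes. All 7 constitutive beta ring genes were positive, between 0.03 and 0.19. With TMM scaling, 13 of 14 core genes (median 0.20) and 9 of 17 cap genes (median 0.03) were positive, so the sign of the cap as a whole depended on the scaling. Of all genes, 42.4% were positive on that scale. With each library left out in turn, 8 to 13 core genes and 1 to 6 cap genes were positive, with the lowest count of each set without day 270 marked library 3. At day 270, 8 of 14 core genes and 3 of 17 cap genes were positive, and at day 60, 13 of 14 core genes and 8 of 17 cap genes were. With a library left out, these were 3 to 11 core and 1 to 8 cap genes at day 270, lowest without day 270 marked library 3 and highest without day 270 marked library 2. At day 60 they were 10 to 13 core and 3 to 11 cap genes, and the cap count was lowest without day 60 marked library 3 and highest without day 60 marked library 1. The genes of a complex are not independent samples, and none of these members passed the test.

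The summed CPM of the 14 core genes over that of the 17 cap genes was 1.48, 1.32 and 1.23 in day 270 marked libraries against 1.12, 1.07 and 1.303 in day 270 unmarked libraries. At day 60 it was 1.84, 1.34 and 1.29 in marked libraries against 1.296, 1.38 and 1.19 in unmarked libraries. The means were 1.34 ± 0.127 and 1.17 ± 0.122 at day 270, and 1.49 ± 0.302 and 1.29 ± 0.0945 at day 60 (marked and unmarked cells in each pair, SD, n = 3 each). The groups overlapped at both days. Day 60 marked library 1 (1.84) was above all others, and without it the day 60 marked values lay within the range of the unmarked ones. Within specimens, the ratio was higher in the marked library in both replicate 1 pairs, in the day 270 replicate 2 pair and in the day 60 replicate 3 pair, and lower in the other two.

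**Figure D3:**
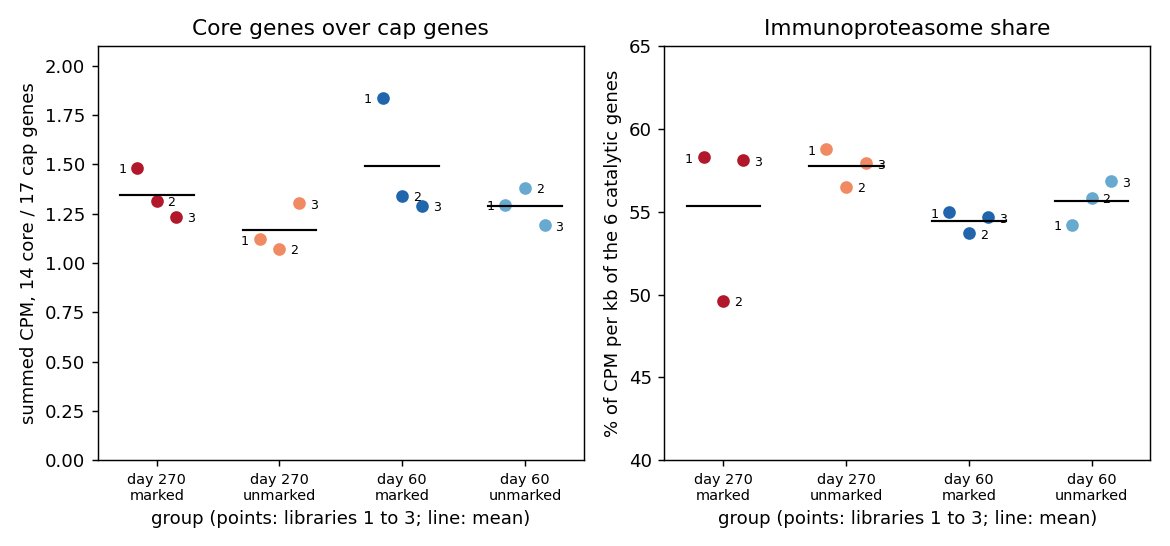
Left, summed CPM of the 14 core genes over that of the 17 cap genes, on an axis that starts at 0. Right, share (%) of the 3 immunoproteasome genes in the summed CPM per kb of the 6 catalytic genes, on an axis that starts at 40. Points are libraries 1 to 3 of each group and lines are means. The highest core-over-cap ratio is day 60 marked library 1 (1.84), and the lowest immunoproteasome share is day 270 marked library 2 (49.6%).

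The fold changes also ran with transcript length. Core genes have shorter principal transcripts (median 1162.5 bases) than cap genes (median 1636 bases). Across the 48 members, Spearman's rho between length and the averaged log2 fold change was -0.50 (-0.45 at day 270 and -0.47 at day 60). Across the 11086 tested genes with a principal transcript it was -0.21 (-0.13 at day 270 and -0.23 at day 60). These are descriptions across genes that share the same 12 libraries. The median averaged fold change of all genes was -0.02 below 1500 bases, -0.16 from 1500 to 3000 bases and -0.26 above 3000 bases. Among members it was 0.06 for the 26 genes below 1500 bases and -0.07 for the other 22. Core against cap is therefore also a comparison of shorter with longer transcripts, and the part of length in the difference was not tested.

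**Figure D4:**
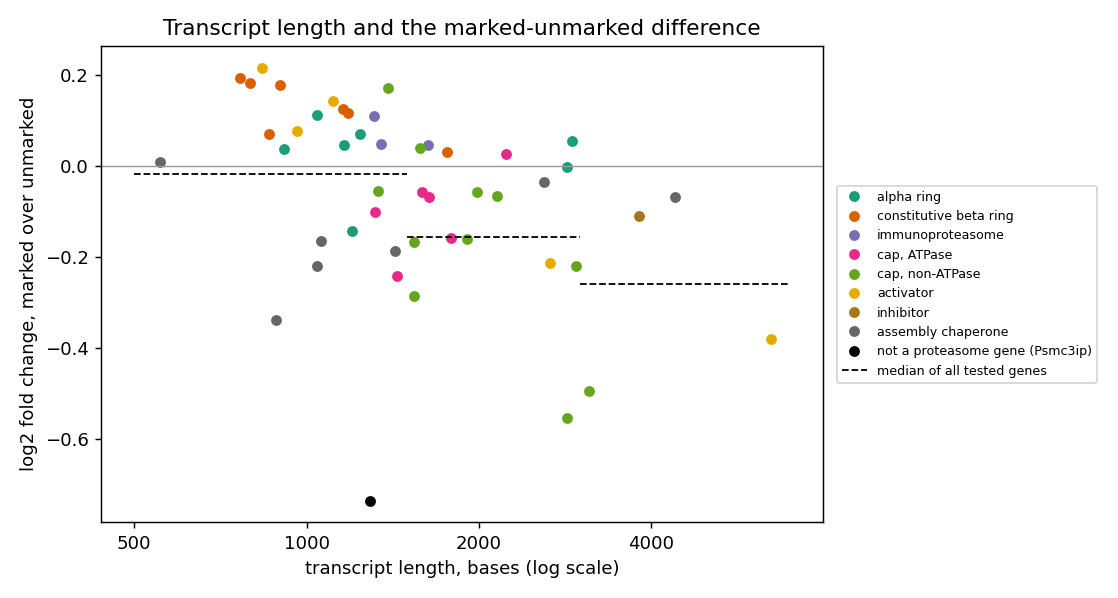
Log2 fold change of marked over unmarked cells, averaged over both days, against the length of the principal transcript (log scale) for the 48 genes, coloured by role. Dashed lines give the median of all tested genes below 1500, from 1500 to 3000 and above 3000 bases (-0.02, -0.16 and -0.26). The short beta ring genes lie above 0. Of the proteasome genes, Psmd11, Psmd1 and Psme4 (2848, 3112 and 6491 bases) lie lowest, while Psmf1 (3809 bases) lies at -0.11. Shorter genes also lie low, with Psmg3 (883 bases) at -0.34 and Psmc3ip (1291 bases), which is not a proteasome gene, at -0.73.

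Psmd1, a large scaffold subunit of the cap, came closest to the threshold, and it is named here because of its values. It lies at chr1:86064387-86139151 on the plus strand (GRCm38). It had 85.6, 79.9 and 107 CPM in day 270 marked libraries against 146, 133 and 125 CPM in day 270 unmarked libraries, and 63.1, 79.9 and 86.6 CPM in day 60 marked libraries against 97.7, 112 and 95.2 CPM in day 60 unmarked libraries. Every marked library was below every unmarked library of its day, and the marked library was the lower in 6 of 6 specimens, which held for 7.64% of all genes tested. The log2 fold change was -0.57 ± 0.18 at day 270 (SE; limma adjusted p = 0.194) and -0.42 ± 0.18 at day 60 (adjusted p = 0.721). The average was -0.50 ± 0.13 (95% interval -0.77 to -0.22, adjusted p = 0.0604). It passed with DESeq2 (-0.36, adjusted p = 0.0355), with limma weights for library quality (-0.53, adjusted p = 0.00731, where 4.95% of all genes tested were called) and without day 270 marked library 3 (-0.56, adjusted p = 0.0272, where 2.91% were called). Over all 24 alternatives its sign was kept, between -0.56 and -0.36, with adjusted p from 0.00731 to 0.189. In GENCODE M21, 4 annotated genes overlap Psmd1, Htr2b among them, and strand was not stated for the counting.

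Psmd11, a lid subunit whose human counterpart is known to raise the amount of capped proteasome in embryonic stem cells, had 46.5, 21.3 and 21.4 CPM in day 270 marked libraries against 55.1, 60.3 and 52.96 CPM in day 270 unmarked libraries. Marked libraries 2 and 3 were far below library 1, and all 3 were below the unmarked ones. The log2 fold change was -1.0 ± 0.31 (95% interval -1.65 to -0.36, limma adjusted p = 0.179), the most negative of the proteasome genes at that day. Without day 270 marked library 1 it passed (-1.37, adjusted p = 0.0173, where 3.74% of all genes tested were called), also in the average (-0.74, adjusted p = 0.0451, where 3.69% were called). With weights for library quality, which gave libraries 2 and 3 of that group the lowest weights of the 12, it was -0.63 (adjusted p = 0.337). At day 60 it had 32.3, 36.6 and 58.99 CPM in marked libraries against 56.2, 35.2 and 43.8 CPM in unmarked libraries, which overlapped (-0.10 ± 0.31, adjusted p = 0.987). The 2 libraries with these low values are those with the fewest detected genes, and the part of this in the value was not tested.

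Other lid and base genes showed smaller differences. Psmd6, a lid scaffold, was the only member higher in the marked library in 6 of 6 specimens (1.85% of all genes tested). It had 101, 111 and 99.98 CPM in day 270 marked libraries against 94.9, 98.5 and 82.98 CPM in day 270 unmarked libraries, and 90.7, 97.8 and 134 CPM in day 60 marked libraries against 79.95, 90.998 and 115 CPM in day 60 unmarked libraries. The groups did not overlap at day 270 and overlapped at day 60, and the average was 0.17 ± 0.14 (limma adjusted p = 0.5600). Psmd14, the deubiquitinase of the lid, averaged 66.7 ± 4.48 CPM in day 270 marked cells and 78.2 ± 15.8 CPM in day 270 unmarked cells, and 58.3 ± 3.73 CPM in day 60 marked cells and 75.2 ± 8.71 CPM in day 60 unmarked cells (SD, n = 3 each). Its fold changes were -0.21 and -0.36 (limma adjusted p = 0.657 and 0.858). Psmc2, an ATPase of the base, was at 91.6, 96.2 and 131 CPM in day 270 marked libraries against 118, 140.1 and 165 CPM in day 270 unmarked libraries, with a fold change of -0.41 ± 0.18 (limma adjusted p = 0.325), and its groups overlapped.

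None of the 6 catalytic genes passed the test between marked and unmarked cells. Psmb5 had 76.4, 68.1 and 106 CPM in day 270 marked libraries against 64.99, 60.9 and 92.1 CPM in day 270 unmarked libraries, and 101, 71.1 and 93.9 CPM in day 60 marked libraries against 80.5, 82.9 and 72.8 CPM in day 60 unmarked libraries. Psmb8 had 385, 254 and 432 CPM in day 270 marked libraries against 351, 348 and 384 CPM in day 270 unmarked libraries, and 377, 344 and 362 CPM in day 60 marked libraries against 349.8, 326 and 305 CPM in day 60 unmarked libraries. For both genes the marked and unmarked libraries overlapped at each day. Psmb6 had 194, 199.9 and 236 CPM in day 270 marked libraries against 169, 185 and 208 CPM in day 270 unmarked libraries, and 208, 210.3 and 203 CPM in day 60 marked libraries against 222, 162 and 161 CPM in day 60 unmarked libraries. Psmb9, which takes the place of Psmb6 in the ring, had 298, 199 and 338 CPM in day 270 marked libraries against 272, 246 and 317 CPM in day 270 unmarked libraries, and 318, 261 and 291 CPM in day 60 marked libraries against 277, 273 and 246 CPM in day 60 unmarked libraries. Both overlapped at each day as well, and Psmb9 had its lowest and its highest value in day 270 marked libraries 2 and 3. Psmb7 had 129, 105 and 112 CPM in day 270 marked libraries against 116, 98.5 and 108 CPM in day 270 unmarked libraries, and 144, 114 and 136 CPM in day 60 marked libraries against 114, 142 and 100.3 CPM in day 60 unmarked libraries. Psmb10, its inducible counterpart, had 206, 142 and 252 CPM in day 270 marked libraries against 172, 136 and 207 CPM in day 270 unmarked libraries, and 182, 142 and 178 CPM in day 60 marked libraries against 173, 167 and 153 CPM in day 60 unmarked libraries. These groups overlapped too, and day 270 marked library 3 was the highest of the 12 for Psmb10. Averaged over days, the fold changes of the 6 genes lay between 0.05 and 0.18, with standard errors of 0.12 to 0.16 and adjusted p of 0.454 (Psmb6) or more in limma.

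**Figure D5:**
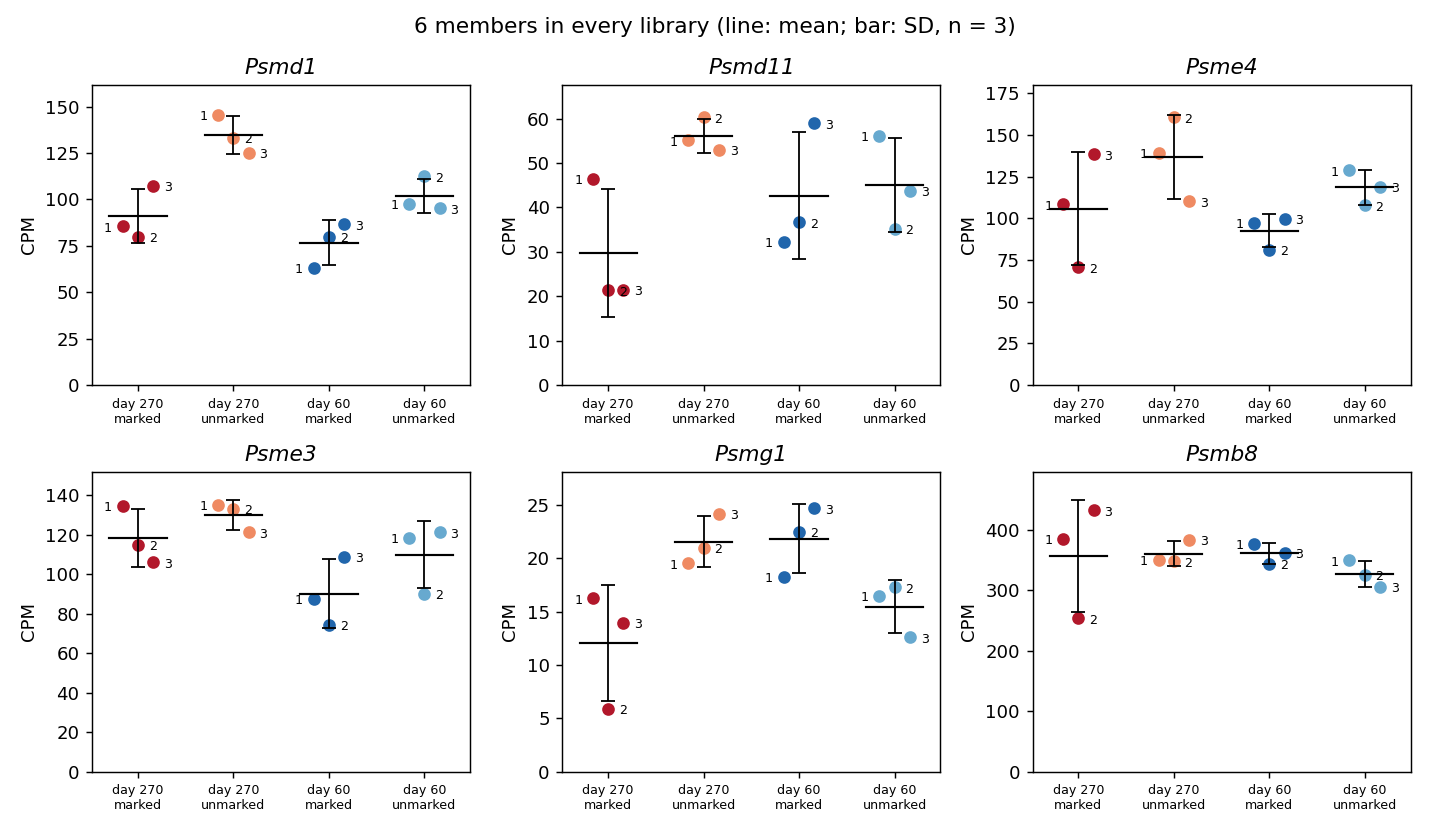
CPM of Psmd1, Psmd11, Psme4, Psme3, Psmg1 and Psmb8 in each library, on axes that start at 0. Points are libraries 1 to 3, lines are means and bars are SD (n = 3). For Psmd1 every marked library is below every unmarked library of its day. For Psmg1 the marked libraries are below the unmarked ones at day 270 and above them at day 60. For Psmb8 the groups overlap.

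The activators are of different kinds. Psme1 and Psme2 encode the partners of an interferon-inducible cytoplasmic ring. Psme1 had 177, 166 and 220.4 CPM in day 270 marked libraries against 159, 154 and 157 CPM in day 270 unmarked libraries, with no overlap, and 131, 151 and 181 CPM in day 60 marked libraries against 157, 157 and 136 CPM in day 60 unmarked libraries, which overlapped. Its day 270 fold change, 0.25 ± 0.17, was the most positive of the members (limma adjusted p = 0.511). Psme2 had 55.8, 43.4 and 102 CPM in day 270 marked libraries against 46.7, 61.8 and 75.8 CPM in day 270 unmarked libraries, with the highest value in day 270 marked library 3. At day 60 it had 48.7, 49.6 and 51.9 CPM in marked libraries against 45.5, 50.05 and 45.1 CPM in unmarked libraries, and its groups overlapped at both days. Psme2b is a single-exon near copy of Psme2, so reads may be shared between them, and the values of both are uncertain. Psme2b had 132 ± 19.1 CPM in day 270 marked cells and 112 ± 18.9 CPM in day 270 unmarked cells (SD, n = 3 each).

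Psme3 and Psme4 encode nuclear activators. Psme3 had 135, 115 and 106 CPM in day 270 marked libraries against 135, 133 and 121 CPM in day 270 unmarked libraries, and 87.4, 74.5 and 109 CPM in day 60 marked libraries against 118, 90.2 and 121 CPM in day 60 unmarked libraries. It was lower in the marked library in 6 of 6 specimens, as were 7.64% of all genes tested, and least so in the day 270 replicate 1 pair, and the groups overlapped at both days (average -0.21 ± 0.13, limma adjusted p = 0.442). Psme4 had 108, 70.6 and 138 CPM in day 270 marked libraries against 139, 161 and 110.3 CPM in day 270 unmarked libraries, and 97.2, 81.1 and 99.7 CPM in day 60 marked libraries against 129, 108 and 119 CPM in day 60 unmarked libraries. The groups overlapped at day 270 and did not at day 60, and the average was -0.38 ± 0.16 (limma adjusted p = 0.232). Psme4 has the longest principal transcript of the members, 6491 bases. The inhibitor Psmf1 had 35.1, 32.6 and 42.2 CPM in day 270 marked libraries against 48.8, 47.8 and 40.97 CPM in day 270 unmarked libraries, and 34.6, 33.5 and 48.98 CPM in day 60 marked libraries against 35.5, 38.9 and 33.2 CPM in day 60 unmarked libraries. Marked and unmarked libraries of Psmf1 overlapped at both days, with fold changes of -0.32 ± 0.23 and 0.10 ± 0.23 (limma adjusted p = 0.542 and 0.987).

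Among the assembly chaperones, Psmg1, which helps build the alpha ring with Psmg2, had opposite orders at the 2 days. It had 16.2, 5.91 and 13.96 CPM in day 270 marked libraries against 19.5, 20.98 and 24.1 CPM in day 270 unmarked libraries, and 18.3, 22.5 and 24.7 CPM in day 60 marked libraries against 16.5, 17.3 and 12.6 CPM in day 60 unmarked libraries. All marked libraries were below the unmarked ones at day 270 and above them at day 60. The fold changes were -0.92 ± 0.37 (limma adjusted p = 0.275) and 0.49 ± 0.37 (adjusted p = 0.931). The difference between them, -1.41 ± 0.52, did not pass (adjusted p = 0.9999). Without day 270 marked library 2, where Psmg1 was at 5.91 CPM (44 reads), the day 270 value was -0.50 and the difference between days -0.98. Psmg3, a partner of Psmg4 in the same process, had 4.01, 2.69 and 2.06 CPM in day 270 marked libraries against 5.06, 5.196 and 5.59 CPM in day 270 unmarked libraries, without overlap and at 19 reads or more (-0.80 ± 0.49, limma adjusted p = 0.481). At day 60 Psmg3 had 5.74, 4.64 and 9.56 CPM in marked libraries against 5.88, 6.35 and 5.23 CPM in unmarked libraries, which overlapped. The other chaperones had fold changes between -0.35 (Psmd10) and 0.06 (Psmg4) at day 270, and between -0.29 (Psmg2) and 0.05 (Psmd9) at day 60. Psmc3ip, the meiotic gene that matches by name only, had 5.02, 0 and 9.09 CPM in day 270 marked libraries against 3.59, 3.85 and 6.03 CPM in day 270 unmarked libraries, and 1.699, 3.33 and 1.79 CPM in day 60 marked libraries against 4.3, 6.87 and 2.13 CPM in day 60 unmarked libraries. Its groups overlapped at both days, and its fold changes were -0.71 ± 0.84 at day 270 and -0.76 ± 0.84 at day 60.

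Day 270 was then set against day 60. No member passed in marked cells, in unmarked cells or in their average, where 4 (0.0315%), 0 (0%) and 24 (0.189%) of all genes tested were called. At an unadjusted p under 0.05 there were 3 members in marked cells (Psme3, Psmg1 and Psmg3; 9.64% of all genes tested), 2 in unmarked cells (Psmc2 and Psmd1; 2.98%) and 2 in the average (Psmd1 and Psme3; 8.53%). In edgeR there were 4, 0 and 3, in DESeq2 4, 0 and 5, and both called 0 members. In unmarked cells 37 members were positive and 11 negative (median 0.10, beside 0.12 for all genes), and in marked cells 24 were positive and 24 negative (median -0.01, beside 0.02). With TMM scaling, 24 in unmarked cells and 14 in marked cells were positive, so these signs depended on the scaling. In marked cells they also depended on single libraries: without day 270 marked library 2, 35 members were positive (median 0.17, beside 0.19 for all genes), and without day 270 marked library 3, 12 were (median -0.18, beside -0.05). In unmarked cells 9 members had all day 270 libraries above all day 60 ones (Psma4, Psma7, Psmc1, Psmc2, Psmc5, Psmd1, Psmd4, Psmf1 and Psmg1; 10.4% of all genes tested) and 0 had them below (2.39%). In marked cells these were 1 (Psmd14; 6.46%) and 2 (Psmg1 and Psmg3; 4.04%).

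All 5 activator genes had positive day 270 over day 60 values in the average, also with TMM scaling, where their median was 0.15, beside 0.27 with CPM. Psme2 and Psme2b, which may share reads, are both among the 5. Of all genes tested, 59.0% were positive with CPM (median 0.07) and 44.1% with TMM scaling (median -0.04). Psme2 had the largest, 0.34 ± 0.19 (limma adjusted p = 0.661), with 67.1 ± 30.97 CPM in day 270 marked cells and 50.1 ± 1.67 CPM in day 60 marked cells, and 61.4 ± 14.6 CPM in day 270 unmarked cells and 46.9 ± 2.77 CPM in day 60 unmarked cells (SD, n = 3 each). Psme3 followed at 0.33 ± 0.13 (adjusted p = 0.493). Psmg3 had the most negative value, -0.59 ± 0.35 (adjusted p = 0.6900). Psmd1 was at 0.33 ± 0.13 (adjusted p = 0.474), higher at day 270 than at day 60 in both populations by its group means, 90.9 ± 14.5 against 76.5 ± 12.1 CPM in marked cells and 135 ± 10.2 against 102 ± 9.32 CPM in unmarked cells. Of the 3 inducible catalytic genes, Psmb10 was at 0.14, Psmb8 at 0.05 and Psmb9 at -0.01, each below its standard error of 0.12 to 0.15.

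Day 270 marked against day 60 unmarked cells, the contrast of a second table deposited by the authors in which 0 of the 48 genes appear, gave 0 members called against 196 of all genes tested (1.54%). Psmd11 and Psme2b were the 2 members at an unadjusted p under 0.05 (14.4% of all genes tested; edgeR 2, DESeq2 3, with 0 called by either). Psme2b had the largest positive value, 0.48 ± 0.20 (limma adjusted p = 0.269), and Psmg3 the most negative, -0.92 ± 0.49 (adjusted p = 0.418). All day 270 marked libraries lay above all day 60 unmarked ones for Psma4, Psme1 and Psme2b (6.56% of all genes tested) and below them for Psmg3 (9.44%). This comparison shares its libraries with the day 270 and day 60 comparisons. The difference between the day 270 and day 60 contrasts gave 0 members and 0% of all genes tested, with Psmg1 the only member at an unadjusted p under 0.05 (3.05% of all genes tested; edgeR 2, DESeq2 1).

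Genes that act with the proteasome were read from 6 lists. Of their 50 tested genes, 0 were called in any comparison by limma. Nfe2l1, the regulator that raises subunit transcription, had 161, 107 and 230.4 CPM in day 270 marked libraries against 182, 208 and 122 CPM in day 270 unmarked libraries, and 88.8, 133 and 207 CPM in day 60 marked libraries against 141, 114 and 142 CPM in day 60 unmarked libraries. The groups overlapped widely, with fold changes of -0.08 ± 0.29 and 0.03 ± 0.29 (limma adjusted p = 0.934 and 0.997). The 10 tested regulators, among them Nfe2l1 and the Maf and NF-Y genes, had a median of -0.09 at day 270 (1 positive) and -0.19 at day 60 (2 positive). The 11 genes of interferon-linked antigen processing, many of them known targets of interferon gamma like Psmb8, Psmb9 and Psme1, had medians of -0.19 (1 positive) and -0.21 (2 positive), beside -0.22 and -0.13 for all genes. Within that list Erap1, the peptidase that trims antigen peptides, came closest, at -0.54 ± 0.15 in the average (limma adjusted p = 0.0763). The main fit of that average called 1.84% of all genes tested. Erap1 was called with DESeq2 (4.3% of all genes tested), with library quality weights (4.95%) and without day 270 marked library 3 (2.91%). It was also called without ribosomal-RNA-like features and Jchain in the total, and without day 60 marked library 3. The shares of all genes called in these last fits are not given here. It had 92.2, 83.6 and 145 CPM in day 270 marked libraries against 143, 151 and 164 CPM in day 270 unmarked libraries, and 81.1, 78.99 and 119 CPM in day 60 marked libraries against 133, 128 and 135 CPM in day 60 unmarked libraries. Marked libraries were below unmarked ones at day 60 and overlapped them at day 270.

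The other lists held 5 further subunits and assembly factors (median -0.11 at day 270 and -0.12 at day 60), 8 proteasome-bound deubiquitinases and ligases (-0.21 and -0.02), 10 ubiquitin shuttle and unfoldase genes (-0.19 and -0.15) and 6 ubiquitin and ubiquitin-activating genes (-0.16 and -0.10). Pomp, the chaperone that matures the core, had 67.4, 84.6 and 118 CPM in day 270 marked libraries against 65.7, 87.1 and 72.3 CPM in day 270 unmarked libraries, and 57.999, 55.4 and 75.5 CPM in day 60 marked libraries against 75.8, 70.7 and 72.1 CPM in day 60 unmarked libraries. Its fold changes were 0.23 and -0.22, and the groups overlapped at day 270 and at day 60.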

How the data were processed

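RNA from 12 libraries of sorted bone marrow plasma cells, 4 groups of 3, was isolated with RNeasy Micro kits and made into TruSeq libraries, per the labels' protocols. Per the submitters' processing notes, the build was GRCm38 and limma was used. No label or header names the aligner, the counter, its strand setting or the annotation. Per the file headers, the authors deposited CPM per library for 14219 genes, beside their log2 fold change against day 60 unmarked cells and their p-value and FDR. A second such table holds 265 genes and a table of read counts deposited by the authors holds 230 genes, with 0 members in either. CPM were whole reads times 1 factor per library: of 151342 values below 1000 reads, 100% came within 0.05 of an integer. They cover 7449468 to 15943547 reads per library in the genes of the table. Between libraries of a group, chi-square divided by its degrees of freedom was 14.9 or more, so no library was counted as a repeat of another.

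The test was limma 3.58.1 (R 4.3.3, trended prior) on log2(CPM + 0.5), with all 12 libraries, 1 coefficient per group and 8 residual degrees of freedom. Fold changes are on that scale and understate the change of low genes. filterByExpr of edgeR 4.0.16 (minimum count 10, at least 3 libraries) kept 12704 genes, over which p-values were adjusted by Benjamini and Hochberg. A gene was called at an adjusted p under 0.05. Tests were two-sided. The calculation was tested on simulated data. Transcript lengths and gene positions are from GENCODE M21. In that annotation 24 of the 48 members overlap another gene. Promoters are from RefSeq.

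A specimen number in the labels joins a marked and an unmarked library of the same day, and the replicate numbers follow it. Residuals of libraries of 1 specimen had a median correlation of 0.0556 (-0.0109 to 0.115, 6 pairs), against -0.0194 (-0.104 to 0.0301, 12 pairs) for libraries of different specimens. A block by specimen was an alternative for marked against unmarked cells of the same day. For day 270 against day 60 libraries the block was the replicate number. The members and the gene lists were chosen with earlier results of these data known, so a list's direction is not independent evidence. Per-library values are given for called members (there were 0), the 6 catalytic genes, the activators Psme1 to Psme4, Psmf1, Nfe2l1 and the members with the extreme fold changes at each day and between days. Psmd1, Psmd6, Psmc2, Psmd14, Psma3, Psma5, Pomp and Erap1 were named after their values were seen. The alternatives were limma-voom, edgeR, DESeq2 1.42.0, other filters, pseudocounts and scalings, library quality weights, the replicate block, the compared groups alone and leaving out libraries.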

Additional observations from a re-analysis of the deposited data

Results flagged for a closer look

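For Psmg1, the alpha ring assembly chaperone, the marked-over-unmarked fold change had opposite signs at the 2 days, and every library followed its group: below the unmarked libraries at day 270 and above them at day 60. The difference between the fold changes was -1.41 ± 0.52 (log2, SE). It did not pass (limma adjusted p = 0.9999), and over 24 alternatives it lay between -1.68 and -0.96 with adjusted p of 0.376 or more. Psmg1 had 44 to 324 reads per library. Its lowest value was in day 270 marked library 2, where 25 of the 48 members were also lowest, and the part of that library's composition was not tested.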

How the results depend on the processing

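Of 197 counts of members called under the alternatives, 192 were 0 and 5 were 1. In the average of both days the count was 1 (Psmd1) with DESeq2, 1 (Psmd1) with library quality weights, 1 (Psmd1) without day 270 marked library 3 and 1 (Psmd11) without day 270 marked library 1, so leaving out 1 library gave 0 to 1. At day 270 it was 1 (Psmd11) without day 270 marked library 1, again 0 to 1. With the replicate block, 0 members were called in every comparison, and Psmd1 had an average of -0.50 (limma adjusted p = 0.108). For marked against unmarked cells of the same day, the block paired libraries by specimen. For day 270 against day 60 libraries it went by replicate number, which joins libraries of different specimens. Among 3341 fold changes of 17 named members, 77 moved by more than the spread between replicates, and 203 changed sign, none of them of a called value. The 2 alternatives chosen after seeing the data were a total without ribosomal-RNA-like features and Jchain, and a fit without day 60 marked library 2 and day 270 marked library 2, and both called 0 members. Without those 2 libraries the median fold change of the members was 0.12 at day 270, against -0.11 with all libraries. With 3 libraries a group, the median standard error of a member's fold change was 0.22 at 1 day, so differences well under 1 log2 unit were not detectable for most members. The genes with the fewest reads, Psmc3ip and Psmg3, had the widest intervals.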
